A study of Equus caballus with 68 samples.

Results

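Cathepsins are the proteases of the lysosome, and cystatin C (CST3) is a secreted inhibitor of the cysteine cathepsins. The mRNAs of 10 such genes were followed in equine bone marrow mononuclear cells (BMNC): CTSL, CTSB, CTSS, CTSD, CTSZ, CTSH, CTSC, CTSA, CTSV and CST3. They were taken by gene symbol, and CTSL was selected on its difference between inflamed and normal synovial fluid at 10 days, where it was among the most raised genes. Of the 10, 8 were analysed among 30371 listed genes, and CTSD and CTSH were not analysed here. The 8 entries were CTSL (ENSECAG00000007210), CTSB (ENSECAG00000023820), CTSS (ENSECAG00000022438), CTSZ (ENSECAG00000024967), CTSC (ENSECAG00000020881), CTSA (ENSECAG00000002350), CTSV (ENSECAG00000004288) and CST3 (ENSECAG00000038893), and all 8 passed the filter on low values. The RefSeq gene list of the horse held the symbols of 7 of these 8 and not that of CTSV.

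The cells came from 8 adult Thoroughbred horses, and each horse gave at most 1 library per fluid and time point. The 0 hour group held fresh BMNC of all 8 horses, and the other groups BMNC grown in autologous synovial fluid, either normal (SF) or taken from joints inflamed with lipopolysaccharide (ISF), for 48 hours (7 horses per fluid), 96 hours (8), 6 days (8) or 10 days (7). Moon had no library at 48 hours and Flash had none at 10 days. The study asked how the 2 fluids change these cells over time. No cell type was sorted, so the wells hold whichever cells of the marrow survive in fluid. In such bulk RNA, more cells of a type and more RNA per cell cannot be told apart.

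Cathepsins are made as inactive precursors, tagged for transport to the lysosome and activated there. CTSL, CTSB, CTSS, CTSZ, CTSC and CTSV are cysteine proteases, whereas CTSA is a serine carboxypeptidase that also protects neuraminidase and beta-galactosidase. CTSL and CTSB degrade proteins broadly. CTSS cuts the invariant chain of MHC class II molecules and stays active outside the lysosome, CTSC activates the serine proteases of granules, and CTSZ is a carboxypeptidase. CTSV is a close relative of CTSL, so reads on stretches shared by both may not be assignable to either with certainty. Macrophages are rich in lysosomes, and cathepsins that leave them can degrade joint matrix.

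Values are GeTMM, a read number corrected for gene length and library, so levels can be compared between genes. A library held 15.7 to 36.0 M reads on genes (median 22.3), and 1 read on a gene of 1 kilobase was worth 0.0337 to 0.0979 GeTMM. The GeTMM values of the SF culture of Moon at 6 days summed to 2321940, which stands apart from the other libraries. At 96 hours, Dealings in ISF resembled the libraries of Dreamer and Dreamer in ISF those of Dealings, whereas 66 of 68 libraries resembled their own horse most. Both libraries belong to the same group, so group means are not touched. Counts of horses that use ISF at 96 hours are touched. So are all fits with horse as a block, which use every library, and the runs that leave out Dealings or Dreamer. Results that changed without these libraries are given both ways.

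Before culture CST3 was the most abundant of the 8 mRNAs and CTSL was nearly absent. CST3 ranged from 994 to 1778 GeTMM (median 1196) at 0 hours and lay above every other member in all 8 horses. CTSS followed with 452 to 861 GeTMM (median 713), then CTSZ with 362 to 719 (median 497) and CTSB with 173 to 338 (median 222). The order of CTSS over CTSZ held in 8 of 8 horses although their ranges overlapped. CTSA had a median of 85.1 GeTMM (60.6 to 96.2) and CTSC of 49.7 (42.0 to 63.0). CTSL lay at 0.440 to 1.71 GeTMM (median 0.879), which was 8 to 35 reads per library. CTSV lay as low, at 0.515 to 2.01 GeTMM (median 1.23), and the 2 did not separate. The 7 cathepsins together made up 0.142% of the summed GeTMM of a library (median, 0.109 to 0.193%).

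Within 48 hours CTSB moved from the 4th to the 1st place in both fluids, and CST3 from the 1st to the 5th in ISF and the 4th in SF, while CTSA stayed above CTSC. CTSB became the most abundant member and stayed so in every group. It ranged from 5223 to 8231 GeTMM (median 6357) in ISF and from 3593 to 8400 (median 4993) in SF at 48 hours, with every culture above every library at 0 hours. Its mRNA took a median of 0.0380% of the reads on genes at 0 hours and 2.50% in ISF at 6 days. The 7 cathepsins together reached a median of 2.53% of the summed GeTMM in ISF (2.26 to 2.85%) and 2.06% in SF (1.67 to 2.49%) at 10 days. This sum leaves out CTSK, which is described below. CTSB was 60.4% of the 7 cathepsins in ISF and 55.0% in SF at 48 hours (medians), against 15.2% at 0 hours.

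**Figure D1:**
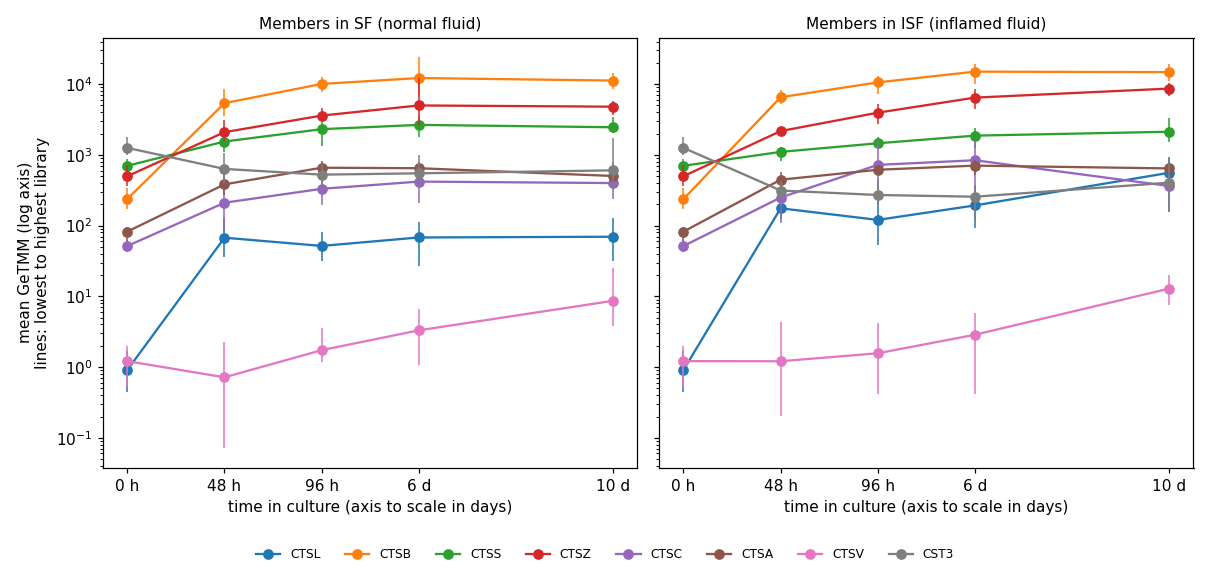
Mean GeTMM of the 8 members (log axis) against time in culture (axis to scale in days) in SF (left) and ISF (right); points are group means of 7 or 8 horses and vertical lines run from the lowest to the highest library. CTSB is at the top of both panels from 48 hours on, CST3 drops from the top at 0 hours, and the CTSL line stands at a mean of 558 GeTMM at 10 days in ISF, after 176 at 48 hours and 120 at 96 hours, and lies between 51.6 and 69.6 in SF from 48 hours on.

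From 0 to 48 hours in ISF, 6 of the 8 members rose, CST3 fell and CTSV did not pass the test (limma on log2(GeTMM + 1), FDR under 0.05), where 52.7% of the 14570 tested genes were called. In SF the count was the same, with 45.4% of all tested genes called. The members' median log2 difference was 2.12 in ISF and 1.97 in SF, beside -0.03 and -0.01 over all tested genes. CTSL rose most, from a mean of 0.909 ± 0.433 GeTMM (SD, n = 8) to 176 ± 38.3 (n = 7) in ISF, a log2 difference of 6.53 ± 0.31 (SE, limma FDR 3.11e-27). In SF it reached 67.4 ± 31.0 GeTMM (n = 7), a log2 difference of 5.08 ± 0.31 (limma FDR 6.22e-22). The added 1 in the logarithm understates the change of a gene as low as CTSL was at 0 hours.

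CTSB rose by 4.79 ± 0.19 on the log2 scale in ISF (limma FDR 1.06e-30) and by 4.47 ± 0.19 in SF (limma FDR 5.81e-29). CTSA, CTSZ and CTSC formed a middle group, with log2 differences of 2.41, 2.14 and 2.10 in ISF and 2.16, 2.06 and 1.88 in SF. In these 3 genes, as in CTSL and CTSB, no cultured library at 48 hours overlapped with 0 hours in either fluid. The share of all tested genes without such overlap was not counted. CTSS rose least, by 0.66 ± 0.16 in ISF (limma FDR 0.000515) and 1.13 ± 0.16 in SF (limma FDR 4.6e-08). CST3 went the other way, by -2.003 ± 0.273 in ISF (limma FDR 5.51e-09) and -1.03 ± 0.27 in SF (limma FDR 0.00142), lower in 7 of 7 horses in both. CTSV stayed at 0.204 to 4.34 GeTMM in ISF and 0.0710 to 2.25 in SF, where the lowest library held 2 reads.

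The macrophage markers rose over the same interval. The mean log2(GeTMM + 1) of CD68, CD163, MRC1, GPNMB, TREM2, MSR1 and CD14 (7 of 7 symbols, CD14 with 2 entries) lay between 2.84 and 3.55 before culture, and between 6.38 and 7.10 (ISF) or 6.07 and 7.13 (SF) after 48 hours, and none was at 0 throughout a group. The neutrophil precursor markers (MPO, LTF, OLFM4 and CEBPE, 4 of 5 listed) dropped from a median of 10.1 to 7.68 in ISF and 7.96 in SF. The part of these shifts in the members' changes was not tested.

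From 48 to 96 hours, 4 of 8 members rose in ISF and 4 in SF, where 19% and 27.3% of all tested genes were called. CTSB, CTSZ and CTSA were among them in both fluids. CTSZ gained 0.85 ± 0.18 on the log2 scale in ISF (limma FDR 0.000481) and 0.81 ± 0.18 in SF (limma FDR 0.000492), and CTSB gained 0.69 in ISF and 0.95 in SF. CTSA gained 0.49 in ISF (limma FDR 0.00486) and 0.81 in SF (limma FDR 1.88e-06). The ISF value missed the threshold when each library was rescaled to the same sum (0.40, limma FDR 0.0851). The fourth was CTSC in ISF, at 1.31 ± 0.37 (limma FDR 0.00727), which missed without Dreamer (1.09, limma FDR 0.0549), and CTSS in SF, at 0.57 ± 0.16 (limma FDR 0.00587). CTSS in ISF had 0.41 (limma FDR 0.0725), and with horse as a block 0.44 (limma FDR 0.0221). CTSV in SF had 0.72 (limma FDR 0.0792), and with the block 0.74 (limma FDR 0.0305). CTSL had -0.64 in ISF, lower in 6 of 7 horses (limma FDR 0.149), and -0.33 in SF (limma FDR 0.472).

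Later intervals moved few members. From 96 hours to 6 days CTSZ rose in ISF by 0.70 ± 0.18 (limma FDR 0.00978, higher in 8 of 8 horses), 1 of 8 members where 6.38% of all tested genes were called. The call was lost without Dreamer (0.64, limma FDR 0.0554) or RimRun (0.65, limma FDR 0.0596). CTSB in ISF had 0.50 (limma FDR 0.102), higher in 8 of 8 horses, and with horse as a block it passed (limma FDR 0.0467). In SF 0 of 8 members were called by limma, where 2.05% of all tested genes were called. At an unadjusted p under 0.05 the count was also 0, as it was at FDR under 0.05 with voom on the recovered reads.

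CTSL in ISF lay above SF at every time point. At 48 hours it ranged from 124 to 225 GeTMM (median 177) in ISF and from 36.2 to 129 (median 64.4) in SF. The ISF culture was the higher one in 7 of 7 horses, and only the SF culture of Flash reached into the ISF range. The log2 difference was 1.45 ± 0.32 (limma FDR 0.00534). At 96 hours it ranged from 52.9 to 221 GeTMM (median 113) in ISF and from 32.0 to 82.2 (median 49.0) in SF, with a log2 difference of 1.15 ± 0.30 (limma FDR 0.00664). ISF was higher in 7 of 8 horses, the exception being Flash with 52.9 in ISF and 64.5 in SF. At 6 days the range was 93.2 to 367 GeTMM (median 165) in ISF and 26.7 to 113 (median 61.3) in SF, a log2 difference of 1.46 ± 0.30 (limma FDR 0.000112) with ISF higher in 8 of 8 horses. These 3 calls held in every alternative run, leaving out each horse included.

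The values at 10 days chose CTSL and are a description. CTSL then ranged from 155 GeTMM in Moon to 941 in Dealings in ISF (median 571), with 278 in Dreamer, 432 in Catnip, 571 in RimRun, 701 in Ollie and 828 in Lurie. In SF it ranged from 31.6 in Lurie to 128 in Ollie (median 55.4), and the groups did not overlap. The log2 difference was 2.92 ± 0.32 (SE). In ISF the mean went from 193 ± 95.6 GeTMM (n = 8) at 6 days to 558 ± 288 (n = 7) at 10 days, higher in 6 of 7 horses with both times, and Moon went from 196 to 155. In SF the means were 67.9 ± 26.9 and 69.6 ± 35.7 GeTMM.

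**Figure D2:**
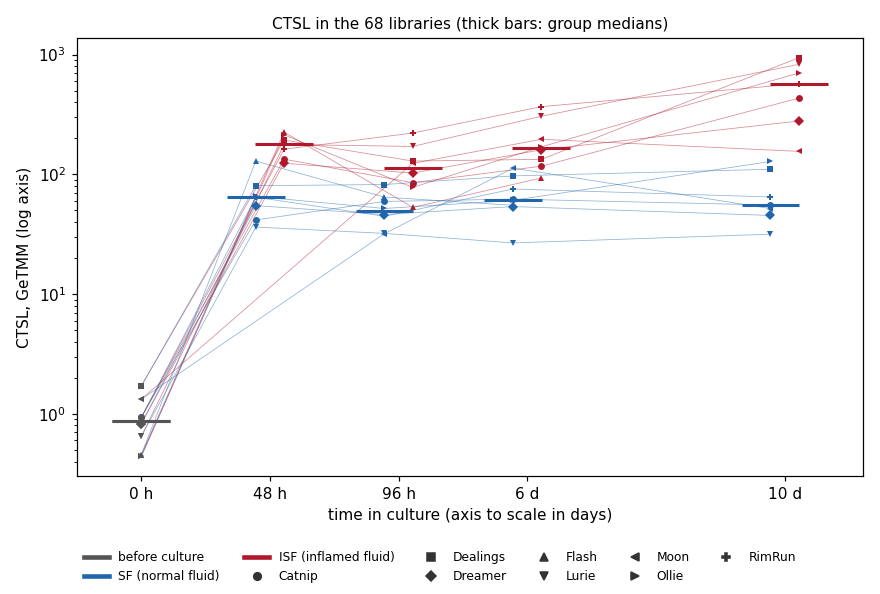
CTSL in GeTMM (log axis) against time in culture for each horse (symbols), before culture (grey), in SF (blue) and in ISF (red); thick bars are group medians and thin lines join the libraries of 1 horse. All 8 libraries at 0 hours lie below 2 GeTMM (highest 1.71), the ISF cultures lie above the SF culture of the same horse in all but Flash at 96 hours, and at 10 days the colours separate.

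Cystatin C was lower in ISF. At 48 hours CST3 ranged from 223 to 430 GeTMM (median 306) in ISF and from 397 to 1050 (median 600) in SF, lower in ISF in 7 of 7 horses. The log2 difference of -0.98 ± 0.28 just missed the threshold (limma FDR 0.0535), and it passed with horse as a block (limma FDR 0.0329). At 96 hours the range was 197 to 461 GeTMM (median 249) in ISF and 345 to 738 (median 496) in SF, a log2 difference of -0.96 ± 0.26 (limma FDR 0.0104) seen in 8 of 8 horses. The call was lost when Dealings and Dreamer were both left out of the ISF group (-0.87, limma FDR 0.0541), and likewise without Dreamer (limma FDR 0.0519) or Lurie (limma FDR 0.0518). At 6 days it ranged from 118 to 373 GeTMM (median 254) in ISF and from 358 to 1004 (median 490) in SF, -1.12 ± 0.26 (limma FDR 0.000778), again in 8 of 8 horses. Every one of these horses had less CST3 mRNA in ISF, but the ranges of the 2 groups overlapped at each time.

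At 10 days CST3 was 159 to 844 GeTMM (median 306) in ISF and 314 to 1744 (median 352) in SF. It was higher in ISF in 3 of 7 horses, so the order seen earlier was not kept in every horse. The SF value of RimRun (1744) lay far above the other 6 SF libraries (314 to 584). Protease and inhibitor set against each other give a ratio that needs no scaling between libraries. CST3 mRNA per CTSL mRNA was 1615 at 0 hours (median, 582 to 3902). At 48 hours it was 1.72 in ISF (1.28 to 2.84) and 10.4 in SF (3.07 to 29.0). At 6 days it was 1.28 in ISF (0.650 to 3.41) and 8.14 in SF (4.17 to 17.5). At 10 days the medians were 0.598 in ISF (0.315 to 2.93) and 6.53 in SF (2.45 to 27.0). CTSL exceeded CST3 in 4 of 7 horses in ISF at 10 days (Catnip, Dealings, Lurie and RimRun), and CST3 exceeded CTSL in every SF culture.

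Of the 7 cathepsins analysed, CTSS was the only one called lower in ISF, at 96 hours and 6 days. At 48 hours it ranged from 831 to 1273 GeTMM (median 1135) in ISF and from 1096 to 2253 (median 1584) in SF. All 7 horses had less in ISF, but the difference of -0.47 ± 0.17 did not pass (limma FDR 0.149). At 96 hours the values were 1269 to 1802 (median 1416) in ISF and 1328 to 3060 (median 2279) in SF, with -0.63 ± 0.16 (limma FDR 0.00505). At 6 days they were 1239 to 2427 (median 1830) and 1800 to 3543 (median 2664), with -0.49 ± 0.16 (limma FDR 0.0145). In both, 8 of 8 horses had less CTSS in ISF. The call at 6 days was lost without Dealings (-0.42, limma FDR 0.0615), without Flash (-0.40, limma FDR 0.0598) and with rescaled libraries (-0.47, limma FDR 0.0564). At 10 days ISF cultures had a mean of 2122 ± 586 GeTMM and SF cultures of 2455 ± 559 (SD, n = 7 each), with 4 of 7 horses lower in ISF.

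**Figure D3:**
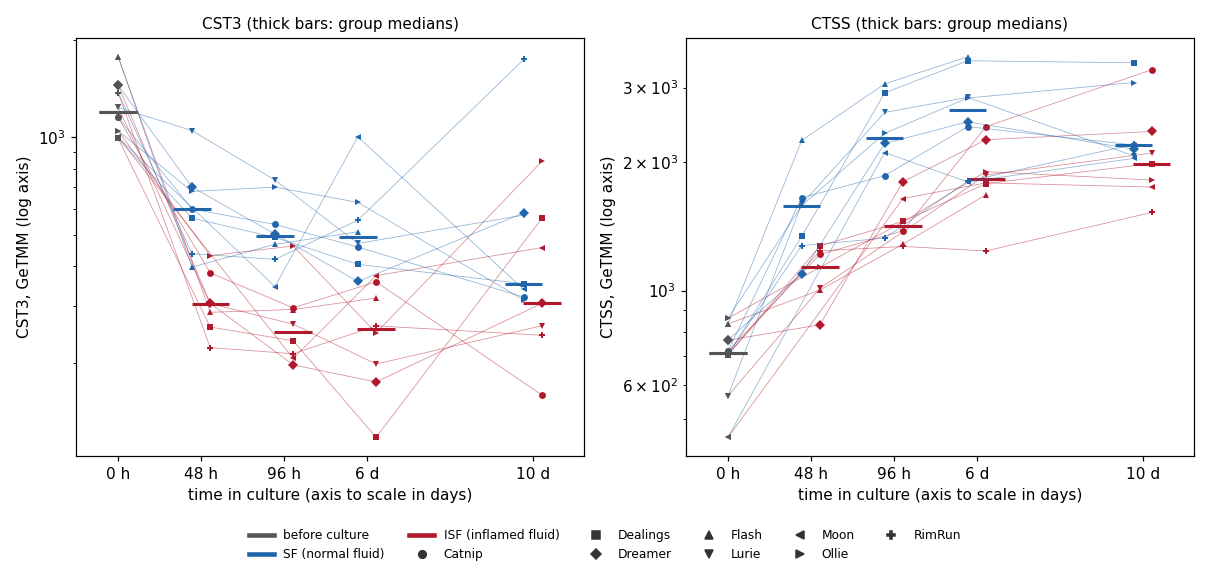
CST3 (left) and CTSS (right) in GeTMM (log axis) against time in culture for each horse (symbols), before culture (grey), in SF (blue) and in ISF (red); thick bars are group medians. From 48 hours to 6 days every horse has lower values of both genes in ISF than in SF, and at 10 days 3 of 7 horses have the opposite order in each gene.

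The calls between the fluids came to 1 of 8 members at 48 hours (CTSL higher), where 1.68% of all tested genes were called, to 3 at 96 hours (CTSL higher, CTSS and CST3 lower), where 10.5% were called, and to 4 at 6 days, where 30.2% were called. The fourth at 6 days was CTSZ, with 4480 to 8630 GeTMM (median 6024) in ISF and 2650 to 12389 (median 4311) in SF. Its log2 difference was 0.50 ± 0.18 (limma FDR 0.0275), higher in ISF in 7 of 8 horses, the exception being Moon, whose SF library stands apart. The call was lost without Catnip, Dreamer, Lurie, Ollie or RimRun (limma FDR 0.0705 to 0.127), with no filter on low values (limma FDR 0.0549) and in a fit of the 2 groups alone (limma FDR 0.245). At 10 days, a description, CTSZ ranged from 6872 to 10206 GeTMM in ISF and from 3624 to 5813 in SF, and did not overlap. Its log2 difference was 0.85 ± 0.19, the next in size among the members after CTSL.

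CTSB did not pass at any of the 3 times tested, with log2 differences of 0.33 ± 0.20 (limma FDR 0.476), 0.07 ± 0.19 (0.886) and 0.36 ± 0.19 (0.138). The last had a 95% interval of -0.01 to 0.73 and was higher in ISF in 7 of 8 horses. Without the SF library of Moon it was 0.52 and passed (limma FDR 0.0178). CTSA had differences of 0.25, -0.07 and 0.12, and its intervals ran from -0.33 to 0.52 over the 3 times. At 10 days the descriptive differences were 0.40 ± 0.20 for CTSB and 0.36 ± 0.13 for CTSA, each higher in ISF in 6 of 7 horses.

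**Figure D4:**
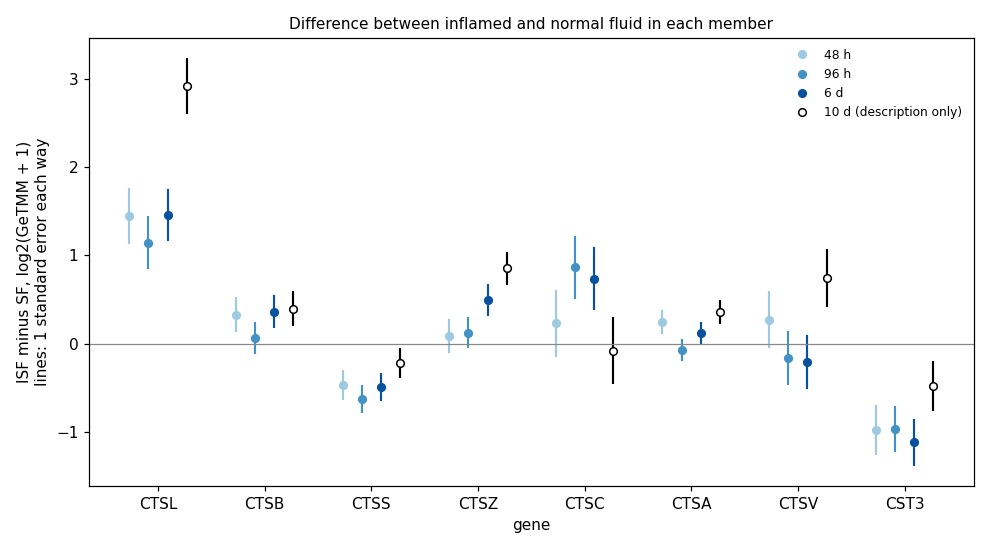
Difference between ISF and SF in log2(GeTMM + 1) for each of the 8 members at 48 hours, 96 hours, 6 days and 10 days (light to dark; open points at 10 days are a description); vertical lines are 1 standard error each way. CTSL is above 0 at each time and at 2.92 at 10 days, CST3 and CTSS are below 0, and CTSB and CTSA stay within 0.40 of 0. CTSZ lies at 0.09 at 48 hours and 0.50 at 6 days, a change that was not called, and at 0.85 at 10 days.

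CTSC spread widely between horses in ISF. At 96 hours it ranged from 200 GeTMM in Lurie to 1580 in Flash (median 456) in ISF and from 195 to 688 (median 296) in SF. At 6 days Dealings (1603), Flash (1566) and Catnip (1451) stood high in ISF, whereas the other 5 horses had 261 to 664. SF values were 208 to 711 GeTMM (median 413). The log2 differences of 0.87 ± 0.36 (limma FDR 0.110) and 0.74 ± 0.36 (limma FDR 0.111) did not pass, and with horse as a block they did (limma FDR 0.0353 and 0.0461), with ISF higher in 7 of 8 horses at 96 hours and 5 of 8 at 6 days. By 10 days the ISF cultures held 257 to 503 GeTMM (median 384), and 6 of 7 horses had less than at 6 days (-0.91 ± 0.37, limma FDR 0.112). Flash had no library at 10 days, but its value at 6 days enters this log2 difference.

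CTSV stayed the lowest of the 8 in every culture but rose from 6 to 10 days in both fluids. In ISF it went from 0.410 to 5.79 GeTMM (median 2.98) at 6 days to 7.58 to 19.8 (median 13.1) at 10 days. The ranges did not overlap, all 7 horses rose, and the log2 difference was 1.95 ± 0.31 (limma FDR 1.45e-05). It was the 1 called member of 7 tested (CTSL was not tested here), where 10.5% of all tested genes were called. In SF it went from 1.08 to 6.65 GeTMM (median 2.65) to 3.82 to 25.3 (median 4.62), with 1.00 ± 0.31 (limma FDR 0.0489) and all 7 horses higher, also 1 of 7 where 4.78% of all tested genes were called. The SF call was lost without Catnip, Dreamer, Lurie, Moon, Ollie or RimRun (limma FDR 0.0615 to 0.136) and without Moon's 6 day SF library (0.87, limma FDR 0.138). CTSA in SF had -0.36 over this interval, lower in 7 of 7 horses (limma FDR 0.0845), and passed with horse as a block (limma FDR 0.0415). In ISF, CTSZ had 0.45 and was higher in 7 of 7 horses (limma FDR 0.119). It passed without Moon's 6 day SF library (limma FDR 0.0336).

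The SF culture of Lurie at 10 days, with the highest CTSV (25.3 GeTMM, 617 reads), was also the library with the highest mean of the stromal markers. The mean log2(GeTMM + 1) of COL1A1, COL1A2, COL3A1, DCN and LUM (5 of 5) was 9.39 in Lurie, 6.53 in Dreamer, 4.52 in Dealings and 0.104 to 2.59 in the other 4 SF cultures at 10 days. CTSV was 10.8 GeTMM in Dreamer and 4.08 in Dealings. In ISF at 10 days the stromal mean was 0.0347 to 0.471 in 6 of 7 cultures and 3.38 in Moon, where CTSV was 7.96 GeTMM, near the low end of its group. As deviations from group means over the 60 cultured libraries, which share horses and cell mixtures, CTSV and the stromal mean had a Pearson correlation of 0.42. The part of stromal cells in the CTSV values was not tested.

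**Figure D5:**
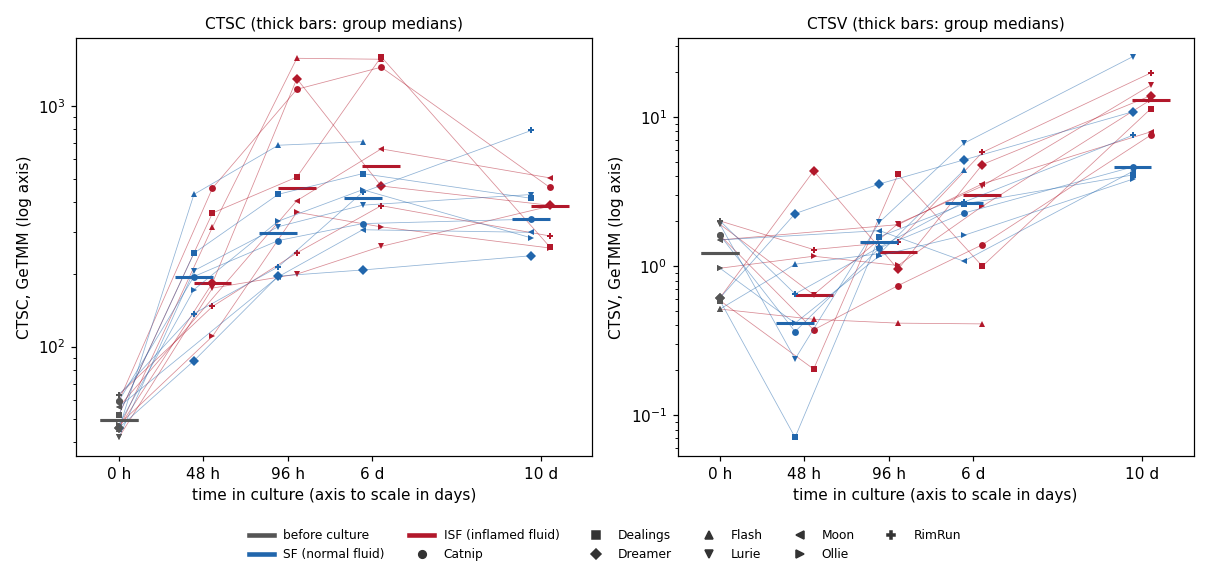
CTSC (left) and CTSV (right) in GeTMM (log axis) against time in culture for each horse (symbols), before culture (grey), in SF (blue) and in ISF (red); thick bars are group medians. CTSC in ISF spreads from 261 to 1603 GeTMM at 6 days and lies at 257 to 503 at 10 days, where Flash has no library. CTSV in ISF moves up from a median of 2.98 to 13.1 GeTMM.

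Whether the gap between the fluids changed with time was tested from 48 hours to 6 days. By limma 0 of 8 members were called in each of the 3 tests, and voom on the recovered reads gave 0 as well, where 0.0206% (48 to 96 hours), 0% (96 hours to 6 days) and 5.38% (48 hours to 6 days) of all tested genes were called. At an unadjusted p under 0.05 the members' count was also 0, beside 806, 881 and 2827 of all tested genes. The change of the CTSL difference from 48 hours to 6 days was 0.01 (95% interval -0.86 to 0.88), that of CST3 was -0.14 (-0.91 to 0.63), and that of CTSZ was 0.41 (-0.11 to 0.93).

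Other genes of lysosomal proteolysis were read from fixed lists. Of the 5 other cathepsins tested (CTSK, CTSF, CTSO, CTSW and CTSE), 1 rose and 2 fell from 0 to 48 hours in ISF, and 3 rose and 2 fell in SF, where 52.7% and 45.4% of all tested genes were called. At 6 days, where 2 of 5 were called, the share of all tested genes was 30.2%. CTSK, a collagen-degrading cathepsin known from osteoclasts, rose by 5.66 in ISF (limma FDR 1.68e-19) and 5.82 in SF on the log2 scale. Its mean was 27.3 GeTMM before culture. By 10 days it had reached 12644 GeTMM in ISF cultures, beside 14761 for CTSB, and 6239 in SF cultures. The CTSK ranges overlapped at that time, with 4642 to 18807 GeTMM in ISF and 3278 to 8843 in SF. CTSW, a cathepsin of cytotoxic lymphocytes, fell by 1.96 in ISF. Between the fluids at 6 days 1 was higher (CTSE, 0.67, with means of 1.24 and 0.249 GeTMM) and 1 lower (CTSW, -1.35).

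Of 8 other lysosomal peptidases, 6 rose and 2 fell from 0 to 48 hours in both fluids (52.7% of all tested genes called in ISF and 45.4% in SF), with a median log2 difference of 2.54 in ISF and 2.51 in SF. LGMN, the legumain that helps to mature cathepsins, rose by 4.86 in ISF and 4.88 in SF, and SCPEP1, a carboxypeptidase, rose by 3.54 in both. Between the fluids none of the 8 was higher in ISF at 48 hours, 96 hours or 6 days. At 6 days 3 were lower, where 30.2% of all tested genes were called, among them PRCP, a carboxypeptidase, at -1.50 (limma FDR 3.1e-10), and PLBD1 at -1.48. The median over the 8 at 6 days was -0.28, beside 0.24 over the 8 members and 0.00 over all tested genes.

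Of 8 genes that deliver enzymes to lysosomes, 7 rose in ISF and 6 in SF from 0 to 48 hours, beside 52.7% and 45.4% of all tested genes called in either direction. GNPTAB, which makes the mannose 6-phosphate tag, rose by 3.21 in ISF, and SCARB2, a lysosomal membrane receptor, by 2.72. At 6 days 4 of the 8 were higher in ISF and 2 lower, where 30.2% of all tested genes were called. The lower ones were IGF2R, a mannose 6-phosphate receptor, at -0.94 and SCARB2 at -0.93. All 3 partners of CTSA (NEU1, GLB1 and GALNS) rose from 0 to 48 hours in both fluids, where 52.7% (ISF) and 45.4% (SF) of all tested genes were called, GLB1 by 1.90 and NEU1 by 1.57 in ISF. At 6 days NEU1 (0.52) and GLB1 (0.47) were higher in ISF, beside 30.2% of all tested genes called.

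Of the 4 MiT/TFE factors, which drive lysosomal genes, 3 rose and 1 fell in ISF and 3 rose in SF from 0 to 48 hours (52.7% and 45.4% of all tested genes called). MITF rose by 2.35 in ISF and TFEB, the one that fell there, had -0.46. At 96 hours 2 were lower in ISF, TFEB (-0.72) and MITF (-0.64), where 10.5% of all tested genes were called. At 6 days, with 30.2% called, TFEB (-0.95) and MITF (-0.63) were lower while TFEC (0.73) and TFE3 (0.62) were higher. In antigen processing, IFI30, a lysosomal thiol reductase, rose by 1.44 from 0 to 48 hours in ISF, while CD74, the invariant chain that CTSS cuts, fell by 0.79. IFI30 was lower in ISF at 6 days (-0.62) and CD74 had -0.55 (limma FDR 0.157).

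Among other cystatins 3 were tested (CSTA, CST6 and CST7). CSTA, an inhibitor that stays inside cells, fell from 0 to 48 hours by 2.92 in ISF and 1.47 in SF, and was the 1 of 3 called, beside 52.7% and 45.4% of all tested genes. At 6 days CSTA (-1.19) and CST7 (-0.76) were lower in ISF, 2 of 3 beside 30.2% of all tested genes called. Of the serine proteases that CTSC activates, 5 of 9 listed were tested (ELANE, AZU1, GZMA, GZMK and GZMM). From 0 to 48 hours 3 fell in ISF and 2 in SF, where 52.7% and 45.4% of all tested genes were called, with GZMM at -2.24 and GZMA at -1.56 in ISF. At 6 days 4 of 5 were lower in ISF, where 30.2% of all tested genes were called: ELANE, the neutrophil elastase, at -3.98 and AZU1 at -3.93. ELANE had a mean of 30.2 GeTMM in ISF and 326 in SF at 6 days. The neutrophil precursor markers had a median of 4.43 in ISF and 6.98 in SF at that time, with ranges of 0.699 to 7.65 and 3.24 to 8.57, and their part was not tested.

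The other marker lists moved with fluid and time too. The macrophage mean was 7.55 to 8.85 in ISF and 7.39 to 7.95 in SF at 6 days, and 7.86 to 8.69 and 7.41 to 7.91 at 10 days. Its genes went different ways at 6 days, with medians of 6156 GeTMM in ISF and 13373 in SF for GPNMB. For MSR1 the medians were 1254 and 212. TREM2, CD163 and CD14 also had higher medians in ISF, whereas CD68 and MRC1 had slightly lower ones. The T cell mean (CD3D, CD3E, CD3G, CD2 and LCK, 5 of 5) was 1.41 to 3.22 in ISF and 2.66 to 5.35 in SF at 6 days, and the B and plasma cell mean (5 of 6) was 1.53 to 3.61 and 2.92 to 5.78. The erythroid mean (4 of 5) was 0.0957 to 0.409 and 0.249 to 1.24, and the cell cycle mean (4 of 5) 3.88 to 5.24 and 2.57 to 4.90. ALAS2, an erythroid marker, was at 0 in every ISF library at 10 days. The osteoclast mean (ACP5, CTSK, CALCR, OCSTAMP and DCSTAMP, 5 of 5) was 4.39 to 6.15 in ISF and 4.82 to 5.73 in SF at 6 days. As deviations from group means over the 60 cultured libraries, its Pearson correlation was 0.64 with CTSL, 0.56 with CTSB, 0.47 with CTSZ, 0.37 with CTSV, 0.16 with CTSA, -0.07 with CST3, -0.09 with CTSS and -0.62 with CTSC. The genes of this list went different ways between the fluids at 6 days, with medians of 167 GeTMM in ISF and 933 in SF for ACP5 and of 13.6 and 2.39 for OCSTAMP. With the macrophage mean, the same correlation was 0.51 for CTSS, 0.44 for CTSC, 0.37 for CTSA, 0.30 for CTSZ and 0.27 for CTSB. It was 0.11 for CTSL, -0.12 for CST3 and -0.14 for CTSV. The largest values with the other lists were those of CTSA, at -0.67 with the B and plasma cell mean and -0.56 with the T cell mean. The part of the marker shifts in the differences of CTSL, CTSS, CTSZ and CST3 between the fluids was not tested.

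The genes whose levels ran most like those of CTSL over the 60 cultured libraries were ZFAND2A (Pearson r 0.78), RMC1 (0.78), DUSP4 (0.77), HSPA9 (0.77) and GHITM (0.76), out of 9623 genes with a symbol and enough signal. For CTSV they were CTTN (0.89), EDIL3 (0.86), CCN2 (0.85), PPFIBP1 (0.84) and CRIP2 (0.83). For CST3 the likeness was weaker, with QARS1 (0.66), ACSF2 (0.65), COQ8A (0.63), COQ3 (0.63) and IMPA2 (0.62). The points share horses, fluids and times. They include the ISF and SF libraries on whose difference CTSL was selected. The CTSL list may therefore favour genes that share this difference, and it is a description.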

How the data were processed

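RNA of bone marrow mononuclear cells from 8 horses was sequenced in 68 libraries. Per the methods and the processing notes, the authors aligned trimmed reads to EquCab 3.0 (STAR 2.7.2a) and took counts per gene. The deposited table holds GeTMM values, made by the authors from these counts, which resemble RPKM in being corrected for gene length and were put on 1 scale with TMM factors. For their own tests the authors named DESeq2. Groups, horses and times came from the labels, and genes were taken by symbol. The members and gene lists were chosen with earlier results of these data known.

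Values were tested as log2(GeTMM + 1). Genes reaching 0.5 GeTMM in 7 or more libraries were kept, 14570 in all. A linear model with a trend (limma 3.58.1, R 4.3.3) was fitted once to the 9 groups of 68 libraries, without a horse term, and was checked on simulated data. The simulated libraries were drawn independently, with no horse effect, so that check cannot cover the recurrence of horses across groups. P values are two-sided, and FDR is the Benjamini-Hochberg adjustment over all genes of a comparison, with calls under 0.05. Because CTSL was chosen on ISF against SF at 10 days, no member was tested in that comparison, and CTSL was tested in none that includes 10 days. Each library comes from its own culture well, with 1 library per horse in a group. The p-values thus cover the spread between horses and wells together. The same horses recur across the 9 groups, and this fit treats their libraries as independent.

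All genes were named by rule. Every member was described whatever its values, and of each list the 2 called genes with the largest difference were given, beside genes the text turns on. List levels of markers are means of log2(GeTMM + 1) per library. Genes alike were the 5 with a symbol, a mean of at least 5 GeTMM in a group and the highest Pearson correlation over the 60 cultured libraries. Of listed genes, those with no tested entry were not analysed here.

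The values step in units of single reads, from which reads were recovered for 24065 of 24065 genes above 0 (within 0.00257 reads of a whole number). Reads give depth and cover counting error only. Libraries whose labels carry the same horse name were taken as the same horse. Deviations from group means had a median correlation of 0.263 for 258 pairs of libraries of the same horse and -0.05 for 2020 pairs of other horses. The alternatives were a pseudocount of 0.1, no filter, horse as a block, a fit of the compared groups alone, voom on the recovered reads, leaving out the libraries that stand apart, leaving out each horse, and, chosen after seeing the data, libraries rescaled to the same sum. Protein and genome sequences were not used here. Python 3.11.15, numpy 2.4.6, pandas 2.3.3, scipy 1.17.1 and matplotlib 3.10.9 were used.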

Additional observations from a re-analysis of the deposited data

Results flagged for a closer look

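In 4 of 72 groups of values (8 members in 9 groups), 1 library lay far from the others of its group by Dixon's test at 95%, and chance alone flags about 1 in 20 groups. The SF culture of Moon at 6 days held 12389 GeTMM of CTSZ, against 2650 to 4796 in the other 7 horses. This library's GeTMM summed to 2321940, and with each library rescaled to a sum of 1 M the CTSZ value was 5336 against 2838 to 5108. The ISF culture of Dreamer at 48 hours held 4.34 GeTMM of CTSV against 0.204 to 1.29, and the SF culture of Dreamer at 96 hours held 3.56 against 1.17 to 1.97. The ISF library on the label of Dealings at 96 hours held 4.13 GeTMM of CTSV and that of Dreamer 0.951; these are the 2 libraries that lay closest to each other's horse. The SF culture of RimRun at 10 days held 1744 GeTMM of CST3, against 314 to 584 in the other 6 horses.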

How the results depend on the processing

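Over the 16 alternatives, the 120 values of single members counted as the same in 1860 of 1920 cases. A called value counted so with its call and direction kept, and an uncalled one with no call gained, whatever its direction. An untested value had to keep its direction and move by less than the SD of the within-horse differences. Of the rest, 29 lost a call, 22 gained 1, 9 untested values moved, and none that was called changed direction. At 48 hours the members called between the fluids went from 1 to 2 with the replicate block of horses, in a fit of the compared groups alone, without Moon's 6 day SF library and with libraries rescaled to the same sum, CST3 being added each time (range 1 to 2 leaving out each horse). At 6 days the fit of the compared groups alone gave 2 in place of 4, with CTSS (FDR 0.0865) and CTSZ (FDR 0.245) lost. From 96 hours to 6 days in ISF the count went from 1 to 2 with the replicate block and without the SF library of Moon, CTSB being added, and ranged from 0 to 1 leaving out each horse. From 6 to 10 days in ISF it went from 1 to 2 without the SF library of Moon (range 1 to 2 leaving out each horse). From 6 to 10 days in SF it went from 1 to 0 with a pseudocount of 0.1, with no filter, with the compared groups alone, with voom and without the SF library of Moon, and to 2 with the replicate block, which kept CTSV and added CTSA (range 0 to 1 leaving out each horse). The causes were not tested. The replicate block changed no other call than those given here and beside CTSC, CTSS and CTSV in the report. Depth limits CTSV before 10 days (2 to 182 reads) and CTSL at 0 hours. With a pseudocount of 0.1 the rise of CTSL from 0 to 48 hours in ISF was 7.53 on the log2 scale, and with voom 7.64.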
